A study of Bubalus bubalis with 2 samples.

Results

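Heat shock proteins and chaperones were described in cell-free total RNA of saliva from Murrah buffalo, a river-type dairy breed of water buffalo, in 1 library of estrus (when the animal accepts mating) and 1 library of diestrus (when the corpus luteum is active). The genes were taken by symbol from the deposited table: the HSP70, HSP90, small heat shock protein, HSP40 (DNAJ) and CCT families, the mitochondrial chaperonin pair HSPD1 and HSPE1, the cofactors BAG3, HSPBP1 and HSPBAP1, and the heat shock factors HSF1 and HSF2. Among the 20905 genes listed, 84 met this rule, which used no measured value. The labels name no treatment, age or number of animals, so whether a library came from 1 animal or a pool is not known. Each stage had 1 library, so the spread between animals is unknown and no difference below has a replicate check or a p-value of its own.

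Chaperones bind unfolded or partly folded proteins and keep them from aggregating. Small heat shock proteins hold such clients without ATP. HSP70 proteins bind and release them in cycles that J-domain proteins of the HSP40 family start and nucleotide exchange factors end. HSP90 completes the folding of kinases and steroid receptors, and the CCT ring folds actin and tubulin in the cytosol. HSF1 switches on many of these genes when proteins are damaged by heat or other stress, while other family members are made at all times.

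Levels are FPKM, fragments scaled to transcript length and library size, so they can be compared between genes. Ratios are log2((estrus FPKM + 1)/(diestrus FPKM + 1)), a scale that makes changes of low genes look smaller, and a positive ratio means a higher level at estrus. A gene was counted when its mean over both libraries was at least 1 FPKM and was set apart at 2-fold or more. The steps of the values on short loci put 1 fragment per kb at 0.233 FPKM at estrus and 1.25 at diestrus, so the estrus library was the deeper by 5.37 times. A level of 3 fragments per kb corresponded to 0.6997 FPKM at estrus and 3.75 at diestrus. Of the chaperone genes above 0, 15 of 57 lay under that level at diestrus and 1 of 54 at estrus. Of 18 salivary gland rows looked up 16 were listed at 0 in both libraries, among them STATH, LPO, LTF, LYZ and AQP5, as were 10334 of all 20905 genes, and such a 0 is not read as absence. CST3, a cystatin made by many tissues, was the abundant exception at 716 FPKM at estrus and 458 at diestrus. All 20 fibroblast and matrix markers looked up were counted, whereas 7 of 9 neutrophil markers were at 0 in both libraries.

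Of the 84 chaperone genes 22 were listed at 0 in both libraries, 8 were above 0 but under the filter, and 54 were counted. As deposited, the counted genes were split between the stages: 16 were at least 2-fold higher at estrus, 18 were lower and 20 lay between, which is 29.6% and 33.3% against 31.3% and 33.1% of all 8269 counted genes. Their median log2 ratio was -0.11, beside -0.016 over all counted genes. With the upper quartiles of the libraries made equal, which lowers every ratio by up to about 0.39, 13 were higher and 22 lower. This rescaling lowers the ratios of all genes too. Their shares under it were not computed, so these counts are not read as a lean of the chaperones. Of the 41 genes that reached 3 fragments per kb in both libraries, 9 were higher at estrus and 15 lower, beside 26.6% and 28% of all genes at that depth. Directions varied by family in these libraries, as the plot of ratios by family shows: small heat shock proteins were mostly lower at estrus and CCT subunits mostly higher. In cell-free RNA of saliva, fewer cells of a type releasing RNA, less RNA per cell and greater loss of RNA cannot be told apart.

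**Figure D1:**
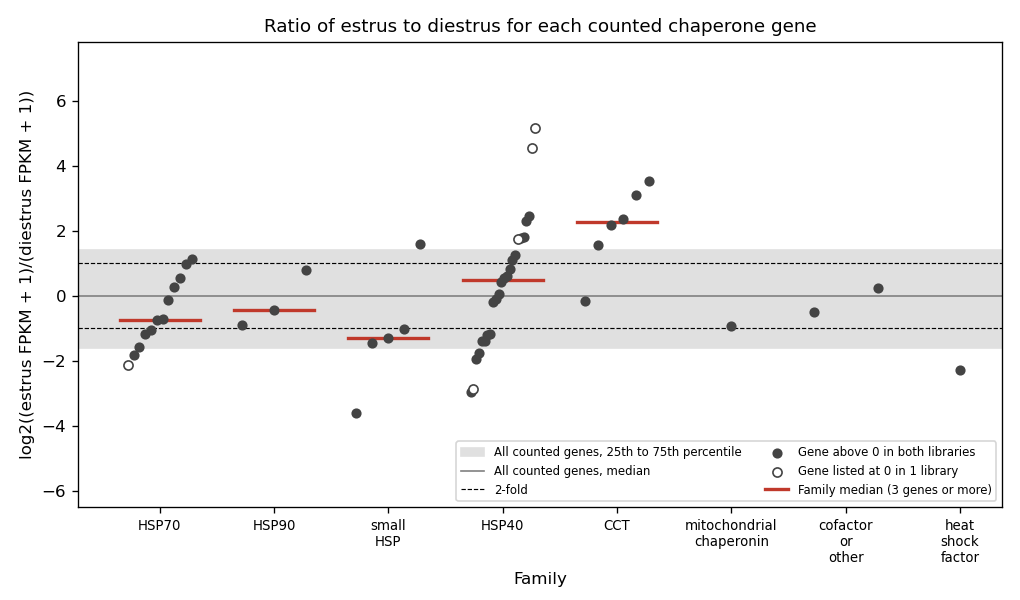
Each point is 1 counted chaperone gene, grouped by family on the horizontal axis, with the log2 ratio of estrus to diestrus on the vertical axis; open points are listed at 0 in 1 library, red bars are family medians and the grey band holds the middle of all counted genes. The CCT median of 2.27 lies above the band and the small heat shock protein median of -1.30 near its lower edge.

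As a share of all FPKM, the 84 genes together held 0.971% of the estrus library and 3.29% of the diestrus library. HSPB1 alone held 45.7% of the chaperone FPKM at estrus and 71.9% at diestrus. Without it the other 83 genes summed to 5354 FPKM at estrus and 4822 at diestrus, which were 0.527% and 0.924% of their libraries. The share of each library depends on how much FPKM its few most abundant genes take.

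Small heat shock proteins were the most abundant family, and 4 of the 5 counted members were lower at estrus, beside 33.1% of all counted genes. Their rank rested mainly on HSPB1, which held 89.4% of the family FPKM at estrus and 89.8% at diestrus. HSPB1 (HSP27), an actin-protecting chaperone of epithelium and muscle on chromosome 25 (34858435 to 34861074), was listed at 4509 FPKM at estrus and 12318 at diestrus. It ranked as gene 28 of the estrus library and gene 4 of the diestrus library, with a log2 ratio of -1.45. Coordinates here and below are those of the file, whose build is not stated and whose chromosomes are numbered as in cattle. CRYAB, alpha-B crystallin, the small heat shock protein of lens and muscle, was listed at 371 FPKM at estrus and 917 at diestrus, or a log2 ratio of -1.30. The ratio of HSPB1 to CRYAB was therefore nearly the same in both libraries, 12.2 at estrus and 13.4 at diestrus.

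HSPB8 was among the genes listed far lower at estrus. It works with BAG3 to send damaged proteins to autophagy, and its row on chromosome 17 (58405437 to 58418688) stood at 23.7 FPKM at estrus against 299 at diestrus, or a log2 ratio of -3.61. BAG3, its partner, stood at 205 FPKM at estrus and 173 at diestrus, within 2-fold, so the partners did not move together. HSPB6, which is abundant in smooth and cardiac muscle, was at 83.0 FPKM at estrus and 169 at diestrus with a log2 ratio of -1.01, just past the 2-fold line. With a pseudocount of 10 FPKM it lay inside the line at -0.94.

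HSPB2 went the other way from the rest of the family. HSPB2, a muscle-enriched small heat shock protein, stood at 55.6 FPKM at estrus and 17.9 at diestrus, or a log2 ratio of 1.58. Its row lies 988 bp from that of CRYAB on chromosome 15 (22571245 to 22572575 for HSPB2, 22566929 to 22570256 for CRYAB), and the genes are also direct neighbours in the buffalo RefSeq annotation of NDDB_SH_1. CRYAB was 6.67 times as abundant as HSPB2 at estrus and 51.3 times as abundant at diestrus. The remaining rows HSPB3, HSPB7 and HSPB9, made chiefly in muscle or testis, were listed at 0 in both libraries, as was HSPB11, which carries the name but serves intraflagellar transport.

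Markers of muscle and epithelium, tissues rich in small heat shock proteins, also differed between the libraries. Of 10 smooth and skeletal muscle markers 6 were above 0, and they summed to 6602 FPKM at estrus and 747 at diestrus. The enteric smooth muscle actin ACTG2 made up most of the estrus sum at 6394 FPKM, and without it the sums were 208 FPKM at estrus and 399 at diestrus. These remainders were mostly different genes. Smooth muscle CNN1 stood at 201 FPKM at estrus with a log2 ratio of 3.85. Skeletal muscle ACTA1 stood at 2.25 FPKM at estrus and 378 at diestrus, or a log2 ratio of -6.87. The pooled sums therefore give no direction for smooth or skeletal muscle taken alone. DES, of both muscle types, lay within 2-fold at 4.76 FPKM at estrus and 5.17 at diestrus. ACTA2 and TAGLN, also smooth muscle genes, were looked up with the fibroblast markers and were higher at estrus, at log2 ratios of 2.28 and 2.41. Of the 5 counted muscle markers 2 were higher at estrus, 2 lower and 1 between, with a median log2 ratio of -0.099, and MYH11, MYL1, MYLPF and TNNT3 were at 0 in both. Among all counted genes 31.3% were higher and 33.1% lower. Of 19 oral squamous epithelium markers 13 were above 0, and 9 of the 12 counted were lower at estrus and 2 higher. They summed to 30240 FPKM at estrus and 2718 at diestrus with KRT6A, and to 193 against 2395 FPKM without it, while KRT4, CRNN, MAL, DSG3, DSC2 and EMP1 were at 0 in both. The part of these cell types in the levels of the small heat shock proteins was not tested.

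**Figure D2:**
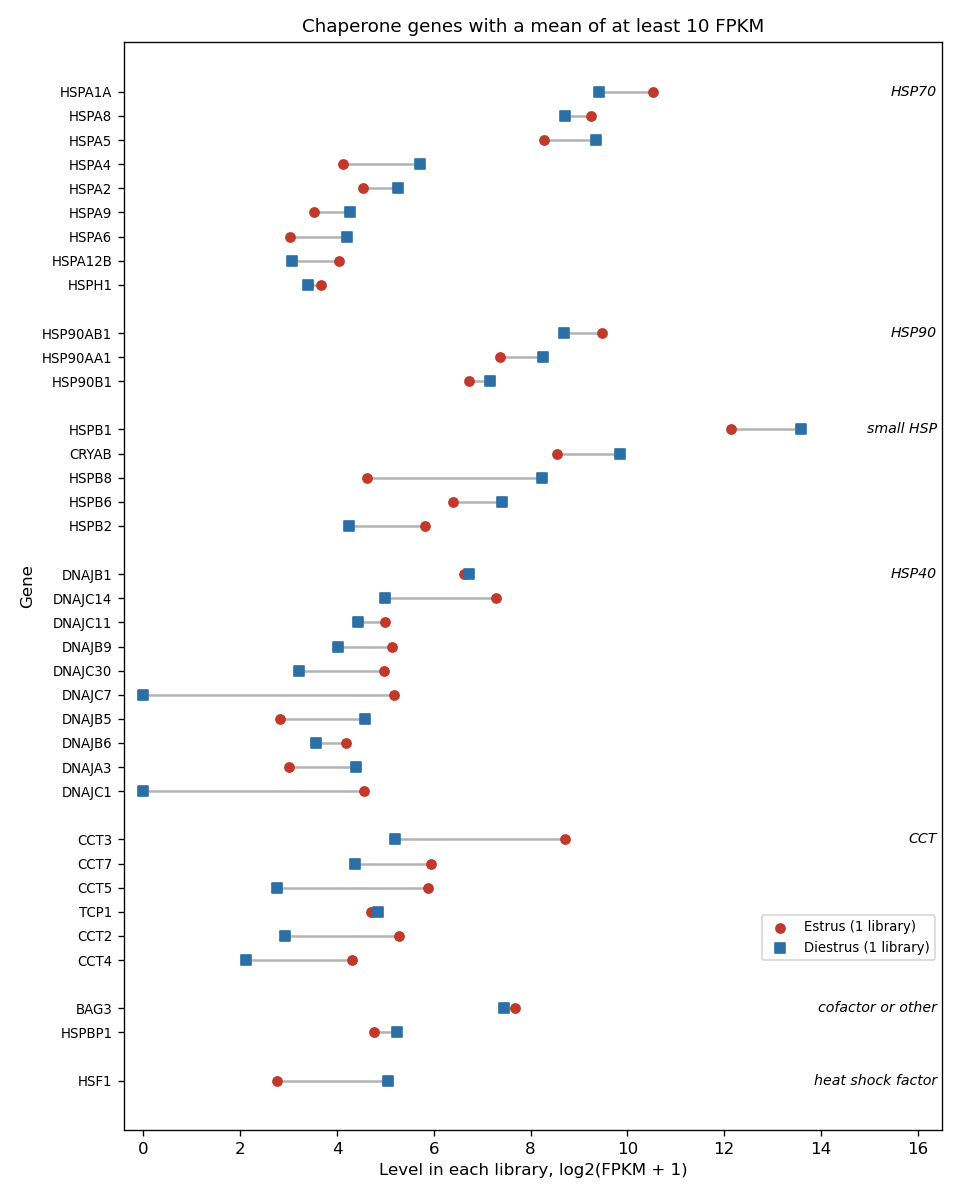
The level of each chaperone gene with a mean of at least 10 FPKM is drawn on the horizontal axis as log2(FPKM + 1), in red for the 1 estrus library and in blue for the 1 diestrus library, with genes grouped by family. HSPB1 is the most abundant gene in both libraries, at 4509 and 12318 FPKM, and DNAJC7 and DNAJC1 sit at 0 at diestrus.

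Within the HSP70 family 12 of 14 rows were counted, of which 1 was at least 2-fold higher at estrus, 5 were lower and 6 lay between, with a median log2 ratio of -0.73, beside 31.3% higher and 33.1% lower among all counted genes. Among the 9 members that reached 3 fragments per kb in both libraries 1 was higher and 3 were lower. Of all genes at that depth 26.6% were higher and 28% lower. Most of the family rested on few genes, since HSPA1A, HSPA8 and HSPA5 together held 96.5% of its FPKM at estrus and 92.1% at diestrus. HSPA1A, the main stress-inducible cytosolic HSP70 on chromosome 23 (27331773 to 27333698), was the one past the line towards estrus, at 1486 FPKM against 677 FPKM, or a log2 ratio of 1.13. With equal upper quartiles its log2 ratio was 0.74, inside the line. HSPA8, the constitutive cytosolic form, was at 607 FPKM at estrus and 419 at diestrus, within 2-fold. The inducible form thus stood at 2.45 times the constitutive form at estrus and at 1.62 times at diestrus.

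HSPA5, the HSP70 of the endoplasmic reticulum known as BiP, was lower at estrus at 311 FPKM against 650 FPKM at diestrus, or a log2 ratio of -1.06. HSPA4, an HSP110-type exchange factor for HSP70, was also lower at 16.6 FPKM against 51.4 FPKM, or a log2 ratio of -1.58. Its relative HSPH1, an exchange factor induced by heat, stood at 11.7 FPKM at estrus and 9.55 at diestrus, so these relatives were not shifted alike. HSPA9, the mitochondrial HSP70, was at 10.6 FPKM at estrus and 18.3 at diestrus, within 2-fold. HSPA12B, a divergent relative found in blood vessel endothelium, was at 15.6 FPKM against 7.44 FPKM with a log2 ratio of 0.97, just inside the line.

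For HSPA1A, HSPA2 and HSPA6 the table's spans are whole numbers of codons, 642, 637 and 644, as for an intronless coding region, so the number of fragments could be estimated. HSPA1A rested on about 11113 fragments at estrus and 942 at diestrus, which gave an FPKM ratio of estrus to diestrus of 2.19 with an exact (Clopper-Pearson) 95% interval of 2.05 to 2.35. HSPA2, a testis-enriched HSP70, stood at 22.1 FPKM at estrus and 37.2 at diestrus, on about 164 and 51 fragments, a ratio of 0.595 with an interval of 0.434 to 0.836. HSPA6, a strictly stress-inducible HSP70 in human cells, stood at 7.18 FPKM at estrus and 17.5 at diestrus, on about 54 and 24 fragments, a ratio of 0.410 with an interval of 0.254 to 0.708. Counting error alone therefore left the direction of each of these genes unchanged between these libraries, with HSPA1A higher at estrus and HSPA2 and HSPA6 higher at diestrus. The intervals cover counting error only, with no account of repeated PCR copies, of the scaling between the libraries or of differences between animals.

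Sequence sharing limits the HSP70 values. HSPA1L, a testis-enriched relative, lies 645 bp from HSPA1A and was listed at 0.109 FPKM at estrus and 2.94 at diestrus, the latter short of 3 fragments per kb. Close paralogs such as HSPA1A, HSPA1L, HSPA2, HSPA6 and HSPA8 can take reads from one another, and the table describes the HSPA2 row with the name of HSPA1A. The buffalo RefSeq annotation held the symbols of 80 of the 84 genes, and HSPA1A, HSPA1L, HSPE1 and DNAJC25 were the others. HSPA12A was listed at 0 at estrus and 3.39 FPKM at diestrus, HSPA13 at 1.59 and 1.81 FPKM, HSPA4L at 0.855 and 0 FPKM, and HSPA14 at 0 in both.

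All 3 HSP90 genes were abundant and none was past 2-fold, in a table where 64.5% of counted genes were. HSP90AB1, the constitutive cytosolic form on chromosome 23 (17867543 to 17873174), stood at 711 FPKM at estrus and 413 at diestrus, or a log2 ratio of 0.78. HSP90AA1, the inducible cytosolic form, stood at 164 FPKM at estrus and 305 at diestrus, or a log2 ratio of -0.89. The cytosolic forms leaned in opposite directions, so HSP90AB1 was 4.33 times as abundant as HSP90AA1 at estrus and 1.36 times at diestrus. HSP90B1, the HSP90 of the endoplasmic reticulum, stood at 105 FPKM at estrus and 143 at diestrus. HSP90AA1 passed the line when upper quartiles were made equal, at a log2 ratio of -1.27.

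The HSP40 family held 43 rows, 24 of them counted, and it was divided: 9 were at least 2-fold higher at estrus, 8 were lower and 7 lay between. This is 37.5% higher and 33.3% lower, beside 31.3% and 33.1% of all counted genes. Of the 15 members that reached 3 fragments per kb in both libraries, 3 were higher and 7 lower, beside 26.6% and 28% of all genes at that depth. Its median log2 ratio was 0.48, beside 0.24 among members above 0 in both libraries and -0.21 among the 15 that reached 3 fragments per kb in both, so the family had no stable direction. DNAJB1, the main stress-inducible partner of HSP70, was the most abundant at 98.2 FPKM at estrus and 105 at diestrus, or a log2 ratio of -0.10. It showed no shift of the size seen for HSPA1A.

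Among the DNAJA genes, which act as general partners of HSP70, 3 of 4 were lower at estrus, beside 33.1% of all counted genes. DNAJA3, the mitochondrial form, stood at 7.10 FPKM at estrus against 20.0 at diestrus, or a log2 ratio of -1.38. DNAJA1 was at 1.504 against 5.504 FPKM and DNAJA2 at 3.07 against 8.28 FPKM, both cytosolic. DNAJA4 was the exception at 3.99 FPKM at estrus against 1.10 at diestrus, and its diestrus value did not reach 3 fragments per kb. With a pseudocount of 10 FPKM all 4 lay inside the 2-fold line, at log2 ratios of -0.43 for DNAJA1, -0.48 for DNAJA2, -0.81 for DNAJA3 and 0.33 for DNAJA4.

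The DNAJB genes were mixed, with 3 of 7 counted genes higher at estrus, 2 lower and 2 between. Among all counted genes 31.3% were higher and 33.1% lower. DNAJB9, an endoplasmic reticulum partner of BiP, was at 34.1 FPKM at estrus and 15.3 at diestrus, or a log2 ratio of 1.10, which was 0.73 with equal upper quartiles. DNAJB5 was lower at estrus at 6.06 against 22.7 FPKM, or a log2 ratio of -1.75, and DNAJB2, a neuron-enriched form, at 2.31 against 6.62 FPKM. DNAJB6, which keeps polyglutamine proteins soluble, lay within 2-fold at 17.1 FPKM at estrus and 10.9 at diestrus. DNAJB11, another partner of BiP, was at 4.74 FPKM at estrus, and its diestrus value of 0.0442 FPKM was far below what 1 fragment per kb is worth, which leaves its ratio unreliable. DNAJB4 was at 2.33 FPKM at estrus and listed at 0 at diestrus.

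The DNAJC genes, which share the J domain but serve varied tasks, were divided as well. Of 13 counted genes 5 were higher at estrus, 3 lower and 5 between, beside 31.3% higher and 33.1% lower among all counted genes. DNAJC14, an endoplasmic reticulum membrane protein that binds receptors on their way out, stood at 154 FPKM at estrus and 30.8 at diestrus, or a log2 ratio of 2.29. DNAJC30, a mitochondrial protein, stood at 30.3 against 8.22 FPKM, or a log2 ratio of 1.77. Both were above the level of 3 fragments per kb in each library. DNAJC7, a cochaperone that binds both HSP70 and HSP90, was at 35.1 FPKM at estrus and listed at 0 at diestrus. DNAJC1, of the endoplasmic reticulum membrane, was at 22.7 FPKM at estrus and likewise listed at 0 at diestrus. A listed 0 can be a failed estimate, so no fold is given for either gene. DNAJC24, which takes part in diphthamide synthesis, was at 9.81 FPKM at estrus and 2.06 at diestrus.

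Towards diestrus, DNAJC13, an endosomal sorting protein, stood at 0.783 FPKM at estrus against 12.8 at diestrus, or a log2 ratio of -2.96. DNAJC5, the cysteine string protein of secretory vesicles, was at 2.11 against 11.003 FPKM, or a log2 ratio of -1.95. DNAJC2, which sits on ribosomes and receives new chains, was listed at 0 at estrus and at 6.32 FPKM at diestrus. DNAJC11, of the mitochondrial membranes, lay within 2-fold at 30.8 FPKM at estrus and 20.6 at diestrus, and DNAJC4, DNAJC16, DNAJC18 and DNAJC22 also lay within 2-fold at 1.09 to 11.8 FPKM. Of the HSP40 rows 14 were at 0 in both libraries, among them DNAJC3, DNAJC8, DNAJC9 and DNAJC19, which are widely used genes, so these zeros are not read as absence.

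CCT subunits were mostly higher at estrus, with 5 of 6 counted subunits at least 2-fold apart in that direction and 0 in the other, beside 31.3% of all counted genes higher. The CCT ring is built of 8 different subunits in equal number. CCT3, the gamma subunit on chromosome 3 (14538748 to 14553305), stood at 420 FPKM at estrus and 35.6 at diestrus, or a log2 ratio of 3.52. CCT5, the epsilon subunit, was at 57.7 FPKM at estrus and 5.76 at diestrus, or a log2 ratio of 3.12. CCT2 (beta) was at 37.9 against 6.59 FPKM, CCT4 (delta) at 18.7 against 3.36 FPKM and CCT7 (eta) at 60.2 against 19.7 FPKM. These 5 subunits were higher at estrus with equal upper quartiles and with a pseudocount of 10 FPKM as well, although the diestrus value of CCT4 was just short of 3 fragments per kb.

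TCP1, the alpha subunit, did not follow them at 24.99 FPKM at estrus and 27.8 at diestrus, or a log2 ratio of -0.15. Its row has the same span as that of ACAT2, an acetyl-CoA acetyltransferase listed at 5.70 FPKM at estrus and 0 at diestrus, so reads may be shared between the rows. CCT8, the theta subunit, was listed at 0 at estrus and 0.798 FPKM at diestrus and was not counted, and CCT6B, a testis form of the zeta subunit, was at 0 in both. CCT6A was not analysed here. Although the proteins stand in equal number in the ring, the counted subunits differed by 22.4-fold in level within the estrus library and by 10.6-fold within the diestrus library. CCT3 was the highest in both, 16.8 times TCP1 at estrus and 1.28 times TCP1 at diestrus.

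Proteins that hand clients to CCT or are its clients were looked up as well. Of 18 counted genes 7 were higher at estrus, 3 lower and 8 between, with a median log2 ratio of 0.58. At diestrus 6 of the 18 did not reach 3 fragments per kb. Over all counted genes 31.3% were higher and 33.1% lower. The prefoldin subunits PFDN1, at 229 FPKM at estrus and 29.5 at diestrus, and PFDN5, at 22.9 against 3.53 FPKM, were higher. The diestrus value of PFDN5 was just short of 3 fragments per kb. PFDN2 was at 2.86 FPKM at estrus and listed at 0 at diestrus. PFDN4 lay within 2-fold at 2.93 and 2.64 FPKM, and PFDN6 was listed at 0 at estrus and 5.29 FPKM at diestrus. The client actin ACTG1 was at 8639 FPKM at estrus and 4122 at diestrus, or a log2 ratio of 1.07. ACTB, TUBA1B and TUBB lay within 2-fold, at 2329 and 3366, 3028 and 3339, and 1722 and 1197 FPKM at estrus and diestrus. The clients thus differed by less than most CCT subunits.

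In the mitochondrion, HSPD1, the HSP60 chaperonin on chromosome 2, was at 5.195 FPKM at estrus and 10.7 at diestrus, or a log2 ratio of -0.92. Its lid HSPE1, whose row starts 152 bp away, was listed at 0 in both libraries although cells need both, so the zero is not read as absence. Of the 8 chaperone genes placed in the mitochondrion 5 were counted, with 1 higher at estrus, 1 lower and 3 between. Of the 12 placed in the endoplasmic reticulum 8 were counted, with 4 higher, 1 lower and 3 between. Among all counted genes 31.3% were higher and 33.1% lower. Of the 4 higher, DNAJC1 was listed at 0 at diestrus and DNAJB11 at 0.0442 FPKM, so neither ratio is reliable.

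Other endoplasmic reticulum folding genes were also divided, with 4 of 16 counted genes higher at estrus, 3 lower and 9 between. Over all counted genes 31.3% were higher and 33.1% lower. The median log2 ratio of the 16 was -0.29. PPIB, a proline isomerase for collagen, was at 813 FPKM at estrus and 153 at diestrus, and CALR, a calcium-binding lectin chaperone, at 658 against 190 FPKM. P4HB, a disulfide isomerase, lay within 2-fold at 1006 and 660 FPKM. The stress transcription factors leaned the other way, with ATF4 at 220 FPKM at estrus and 418 at diestrus and DDIT3 at 43.1 against 118 FPKM.

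HSF1, the master regulator of the heat shock response on chromosome 14 (1806081 to 1825793), was lower at estrus at 5.78 FPKM against 32.2 FPKM at diestrus, or a log2 ratio of -2.29. HSF1 is controlled mainly at the protein level, so its RNA level is a separate measure from its activity. HSF2 was listed at 0 at estrus and 0.691 FPKM at diestrus, under the filter. Well-known targets of HSF1, picked by hand, did not share 1 direction: HSPA1A was higher at estrus, and HSPB1, CRYAB and HSPA6 were lower. DNAJB1, BAG3, HSP90AA1, HSPH1 and HSPD1 lay within 2-fold, and HSPE1 was listed at 0 in both libraries. Among other genes induced by heat shock and further HSF genes, 5 of 16 counted were higher at estrus, 2 lower and 9 between. At diestrus 4 of the 16 did not reach 3 fragments per kb. Among the 5 higher, HSF4 and HSBP1 were listed at 0 there and MRPL18 stood at 1.63 FPKM. Over all counted genes 31.3% were higher and 33.1% lower. The median log2 ratio of the 16 was 0.63. UBB, a ubiquitin gene, was at 1107 FPKM at estrus and 1791 at diestrus, the collagen chaperone SERPINH1 at 1064 and 1217 FPKM and the heme oxygenase HMOX1 at 279 and 135 FPKM.

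The cofactors of HSP70 and HSP90 outside these families included 24 counted genes. Of these 8 were higher at estrus, 6 lower and 10 between, with a median log2 ratio of 0.17. Over all counted genes 31.3% were higher and 33.1% lower. FKBP4, which couples HSP90 to steroid receptors, was at 382 FPKM at estrus and 176 at diestrus, or a log2 ratio of 1.11. PTGES3 (p23), which stabilises the same complexes, was at 54.2 FPKM at estrus and 127 at diestrus, or a log2 ratio of -1.21. As deposited, these partners of the receptor complex thus leaned in opposite directions in these libraries. The ratio of FKBP4 lay near the 2-fold line and was not recomputed with equal upper quartiles. STIP1, which links HSP70 to HSP90, lay within 2-fold at 69.4 and 47.3 FPKM, and GRPEL1, the exchange factor of mitochondrial HSP70, was higher at 56.6 against 23.5 FPKM. HSPBP1, an exchange factor of cytosolic HSP70, was at 26.1 FPKM at estrus and 36.9 at diestrus. HSPBAP1, a binding partner of HSPB1, was listed at 0 in both libraries.

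**Figure D3:**
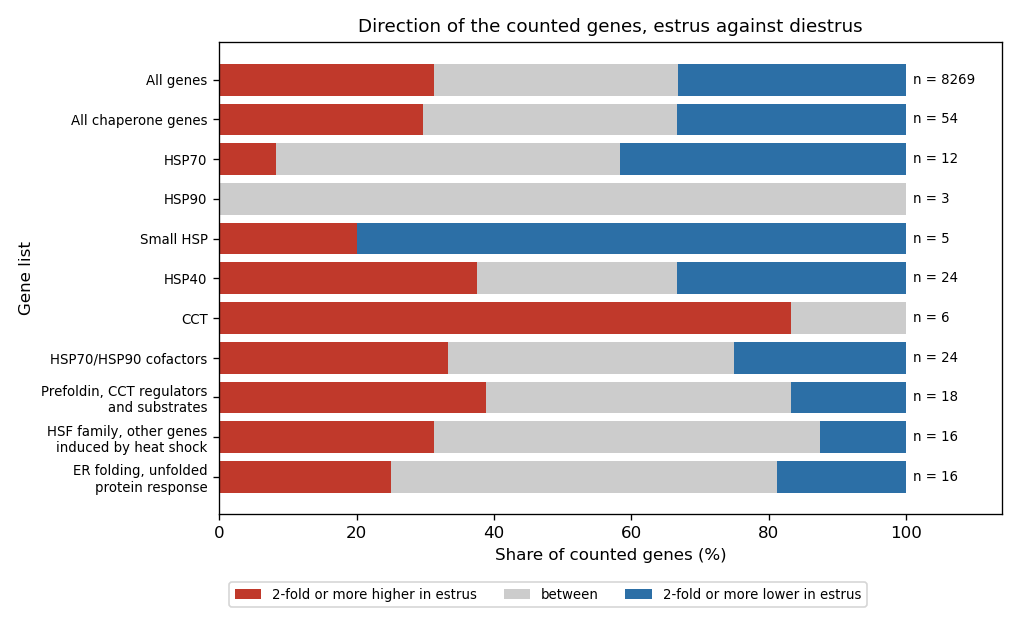
Bars give the share (%) of counted genes that were at least 2-fold higher at estrus (red), between (grey) or at least 2-fold lower at estrus (blue), for all genes, the chaperone families and the related lists, with the number of counted genes at the right. The bar for all 54 chaperone genes is close to that of all 8269 genes, while 5 of 6 CCT genes are red and 4 of 5 small heat shock genes are blue.

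Of the 84 genes, 14 had a p-value under 1 in the authors' deposited table, and 0 of them were called, beside 3.91% of the 1253 genes with such a p-value. The smallest p-value of a chaperone gene in the authors' deposited table was 0.322, for HSP90AB1. HSPB1 had 0.379, HSPB8 0.417, HSPA1A 0.426 and CCT3 0.493 in the authors' deposited table, and the q-values of all 14 genes were 0.797 or 0.808 there.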

How the data were processed

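RNA of 1 estrus and 1 diestrus library was measured by RNA sequencing, with libraries from an Illumina TruSeq RNA kit per the labels' protocols. TopHat, Bowtie, Cufflinks and Cuffdiff are named per the submitters' processing notes. For these tools no version, and for the coordinates no build, is given in the sources used here. FPKM values in the deposited file were made by the authors, with any rescaling between the libraries not stated. The authors' log2 fold change was that of diestrus over estrus (all 7344 genes above 0 in both libraries matched within 0.001), and the deposited p-values and q-values were copied.

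Ratios used a pseudocount of 1 FPKM and a limit of 2-fold, on genes averaging 1 FPKM or more. Genes with a mean of at least 10 FPKM were named, with members past 2-fold, the CCT subunits, the 4 most abundant counted genes of each related list (1 of them is not reported here), and some genes chosen after their values were seen. Families, members and lists were chosen with earlier results of these data known, and compartments after the values were seen. Depth came from FPKM steps on loci of 400 to 3000 bp, within 0.5% of 1 to 3 fragments, and was tested on simulated data. The 3 fragment estimates assume a transcript as long as the locus, shortened by 182 bp at estrus and 186 bp at diestrus. Starts were read as counting from 0, since 127 of 138 olfactory receptor spans were then multiples of 3, and are printed counting from 1. Python 3.11.15, pandas 2.3.3 and SciPy 1.17.1 were used.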

Additional observations from a re-analysis of the deposited data

How the results depend on the processing

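Alternatives were pseudocounts of 0.1 and 10 FPKM, no filter, a mean of at least 10 FPKM, only genes above 0 in both libraries, equal upper quartiles, a median ratio of 0 and, chosen after seeing the data, only genes with at least 3 fragments per kb in both libraries. Medians were taken as moved when they shifted by 1.5-fold or more, and counts when they changed by over 1.5 times. A pseudocount of 10 FPKM left 8 members lower at estrus and a CCT median of 1.39, and changed the side of the 2-fold line for 15 members. A mean of at least 10 FPKM kept 36 members, 10 of them lower. Shares of all genes were not computed under either setting, so neither count is read as particular to chaperones. The level of 3 fragments per kb kept 41 members, with 9 higher, 15 lower and an HSP40 median of -0.21. These filters count fewer genes by construction. Every other count and family median stayed within those limits. No member past 2-fold could reverse direction under these alternatives. Filters and pseudocounts keep the sign of a ratio, and the rescalings shift it by about 0.39 or less. Equal upper quartiles moved 7 members across the line, namely HSPA1A, HSP90AA1, HSPA2, HSPA9, HSPD1, DNAJA4 and DNAJB9. No paired analysis was possible because each stage had 1 library. Depth limits the diestrus values most, with 12 of the 54 counted members under 3 fragments per kb there.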

Other observations

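Folding helpers outside the heat shock families, chosen after their values were seen, included wider differences than most chaperones. PSMG4, an assembly chaperone of the proteasome, stood at 199 FPKM at estrus and 3.53 at diestrus, or a log2 ratio of 5.46. Its partners PSMG2, at 32.7 against 11.5 FPKM, and PSMG3, at 5.15 against 3.24 FPKM, had smaller ratios, and PSMG1 was listed at 0 in both libraries. CLPB, a mitochondrial disaggregase, was at 15.01 FPKM at estrus and 0.793 at diestrus. The diestrus values of PSMG4, PSMG3 and CLPB did not reach 3 fragments per kb. HSF4, a heat shock factor of the lens, and HSBP1, which binds HSF1, were at 13.6 and 9.13 FPKM at estrus and listed at 0 at diestrus. HSF2BP, which binds HSF2, was listed at 0 at estrus and 4.06 FPKM at diestrus.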
